A study of Mus musculus with 10 samples.

Results

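Hedgehog signalling was followed through 9 of its genes in the mandibular prominence (MNP), the swelling of the first pharyngeal arch that forms the lower jaw. The genes were grouped by their roles upstream of the Gli transcription factors, and no measured value enters the rule that lists them, although the list was drawn up with earlier results of these data known: the ligand Shh, the ligand-release factor Scube1, the receptor Ptch1, the decoy receptor Hhip, the transducer Smo, the co-receptors Boc, Cdon and Gas1, and the Gli inhibitor Sufu. They are 9 of the 33641 gene symbols measured, and all 9 passed the filter on low counts together with 17477 genes in all. MNPs were dissected from mouse embryos of the CD1 strain at embryonic day 10.5, and their polyadenylated RNA was sequenced in bulk. The groups were wild-type embryos (WT, 2 libraries), embryos with floxed Hand2 on both alleles and the Wnt1-Cre transgene (Hand2 cKO, 3 libraries), and embryos with floxed Gli2 and floxed Gli3 on both alleles and Wnt1-Cre (Gli2/3 cKO, 1 library). Wnt1-Cre deletes floxed alleles in neural crest cells, which give rise to most of the arch mesenchyme, and leaves the epithelium, the mesodermal core, vessels and blood undeleted. The sources used here do not say whether WT embryos carried floxed alleles, or if each library came from a single embryo.

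Sonic hedgehog is made by the epithelium of the face and pharynx and signals to the neural crest mesenchyme beneath it. Scube proteins help the lipid-bearing ligand leave the cells that make it. On the receiving cell Ptch1 holds Smo inactive until ligand binds Ptch1 together with Boc, Cdon or Gas1. Active Smo then frees the Gli factors from Sufu, so that Gli activators form and Gli repressors are lost. Ptch1, Hhip and Gli1 are themselves switched on by the pathway, and because Ptch1 and Hhip bind ligand this is negative feedback. Gas1, Boc and Cdon are known from other tissues as genes that active signalling turns down. The comparisons ask how these layers stand when the mesenchyme loses Gli2 and Gli3, which carry the signal, or Hand2, a basic helix-loop-helix factor of the distal arch.

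The 9 genes lie on 8 chromosomes of mm10, with positions from the GENCODE M21 annotation. Shh lies at chr5:28456815-28467256 on the minus strand and Smo at chr6:29735503-29761365 on the plus strand. Hhip lies at chr8:79965851-80058006 on the minus strand and Cdon at chr9:35421128-35507652 on the plus strand. Gas1, at chr13:60174405-60177365, and Ptch1, at chr13:63508328-63573598, share a chromosome and are both on the minus strand. Scube1 lies at chr15:83604999-83725021 and Boc at chr16:44485049-44558897, both on the minus strand. Sufu lies at chr19:46396896-46488804 on the plus strand.

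Ptch1 is shown at the sequence level because most of its reads were assigned to a transcript that begins at another first exon than the RefSeq promoter. The coding sequence of Ptch1-201 has 4302 bases before the stop codon and that of Ptch1-202 has 3891. All 3891 bases of Ptch1-202 are the end of Ptch1-201, which adds 411 bases of its own at the start. The first 60 coding bases of each, from GENCODE M21, are given 5′ to 3′ with bases found only in Ptch1-201 in capitals.
Ptch1-201: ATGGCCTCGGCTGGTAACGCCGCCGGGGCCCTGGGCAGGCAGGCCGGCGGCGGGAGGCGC
Ptch1-202: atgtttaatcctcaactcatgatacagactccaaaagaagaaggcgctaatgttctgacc
How the counts of Ptch1 divide between these transcripts in each library is given after the gene values.

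Promoters of 7 of the 9 genes matched the RefSeq table for GRCm38.p6. Those of Ptch1 and Scube1 are printed because these genes had the lowest fold changes of the set in Gli2/3 cKO. The 250 bases before the annotated start are given 5′ to 3′ on the gene's strand, with a match to a searched motif in capitals. That of Ptch1 is chr13:63565736-63565985 and ends where Ptch1-201 begins. That of Scube1 is chr15:83725040-83725289.
Ptch1: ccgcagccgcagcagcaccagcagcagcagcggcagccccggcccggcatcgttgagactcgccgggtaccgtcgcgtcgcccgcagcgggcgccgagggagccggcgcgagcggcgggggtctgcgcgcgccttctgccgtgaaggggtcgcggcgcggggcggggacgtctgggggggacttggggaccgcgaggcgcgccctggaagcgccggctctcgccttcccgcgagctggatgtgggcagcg
Scube1: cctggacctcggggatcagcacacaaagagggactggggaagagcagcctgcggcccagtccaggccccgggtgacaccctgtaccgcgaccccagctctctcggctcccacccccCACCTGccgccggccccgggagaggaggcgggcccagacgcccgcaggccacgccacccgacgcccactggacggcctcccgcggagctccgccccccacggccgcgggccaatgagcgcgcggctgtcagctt
Over the whole promoter window of 300 bases, GC content was 76.3% for Ptch1, against a median of 52.7% over 32851 promoters. Both strands were searched for the Gli motif GACCACCC, its variant GACCTCCC and the E-box CANNTG, the kind of site that Hand2 and its partners bind. GACCACCC stood in 0.807% and GACCTCCC in 1.28% of all promoters, and neither stood in any of the 7 promoters of the set. CANNTG stood in 72.3% of all promoters and in those of Scube1 and Sufu, where it began 134 bases before the start of Scube1 and 68 bases before that of Sufu. A match is a run of letters and not a measured site.

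The libraries held 21420197 to 53326697 estimated counts. Values below are CPM, that is, counts relative to the total of the library after TMM scaling in edgeR, unless they are called TPM, which also divide by transcript length. The targeted genes followed the labels. Hand2 stood at 174 and 209 CPM in WT, at 13.4, 25.4 and 15.6 CPM in Hand2 cKO, and at 144 CPM in the Gli2/3 cKO library. Gli2 and Gli3 stood at 51.3% and 50.0% of their WT means in Gli2/3 cKO. 1 library stood apart in a way that touches these genes: in Hand2 cKO 2 the level fell by 0.23 on the log2 scale for every doubling of transcript length, against slopes of −0.06 to 0.11 in the other 5. Mean transcript length was 8884 bases for Hhip, 7270 for Cdon and 7180 for Ptch1 and from 2847 to 4451 for the other 6, so values of these 3 genes are given with that trend removed too. By edgeR, at an adjusted p below 0.05 and a fold above 1.5, 2 genes were called in Hand2 cKO against WT (0.0114% of those tested), 2 in Gli2/3 cKO against WT (0.0114%) and 6 between the mutants (0.0343%). 0 of the 9 genes were called in any of the 3 comparisons by edgeR, and 0 by DESeq2, which called 1.04%, 0.738% and 0.818% of all genes. At an unadjusted p below 0.05 edgeR gave 1 of the 9 lower and 1 higher in Hand2 cKO against WT (4.02% and 2.44% of all genes), 1 lower and 1 higher in Gli2/3 cKO against WT (2.96% and 1.63%), and 0 lower and 1 higher between the mutants (2.63% and 2.86%). Nothing says that the libraries of a group came from separate litters, so p-values measure the spread between these libraries only. The spread behind every Gli2/3 cKO value is borrowed from the other groups, since that group has 1 library.

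In WT, the set spanned a wide range of length-adjusted levels. Smo was the most abundant, at 155 ± 7.35 TPM (SD, n = 2), followed by Gas1 at 103 ± 34.1, Ptch1 at 74.3 ± 6.26 and Sufu at 56.8 ± 2.62 TPM. Scube1 at 41.6 ± 13.2, Cdon at 27.9 ± 3.26 and Boc at 12.3 ± 0.64 TPM came next. Shh, at 7.47 ± 0.56 TPM, and Hhip, at 2.53 ± 0.16 TPM, were the lowest. The WT ranges of Gas1 and Ptch1 overlapped, at 78.6 to 127 and 69.9 to 78.7 TPM, while those of the other neighbours in this order did not. The order Cdon, Boc and Hhip below Sufu held in all 6 libraries. Smo stood above Gas1 in 4 of 6 libraries, Ptch1 above Sufu in 4 of 6, and Boc above Shh in 5 of 6. The library in which Shh passed Boc was Gli2/3 cKO 3, at 13.0 TPM of Shh against 10.7 TPM of Boc. That library also had Scube1, at 17.7 TPM, below Cdon, at 23.3 TPM.

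**Figure D1:**
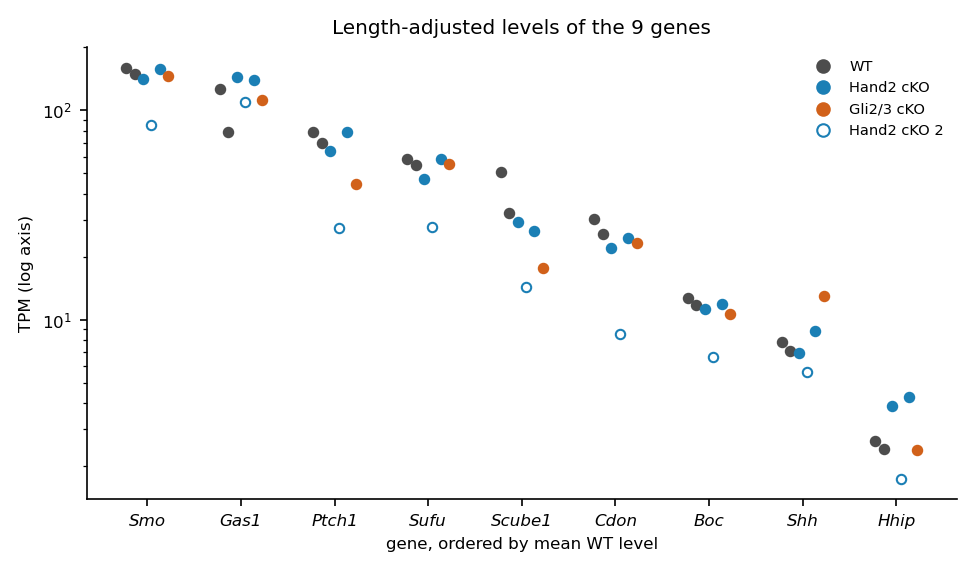
Length-adjusted level (TPM, log axis) of each of the 9 genes in each of the 6 libraries, with genes ordered by their mean in WT; 1 point is 1 library and the open point is Hand2 cKO 2. Smo and Gas1 are highest and Hhip lowest in the plot, and in Gli2/3 cKO Shh (13.0 TPM) stands above the other 5 libraries.

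Shh, the ligand, is transcribed in cells that Wnt1-Cre does not delete in. It stood at 10.5 and 10.3 CPM in WT, at 10.2, 11.5 and 12.4 CPM in Hand2 cKO, and at 18.3 CPM in the Gli2/3 cKO library. The Gli2/3 cKO value rests on 479 estimated counts, with an exact Poisson 95% interval of 16.7 to 20.0 CPM that covers counting error only. It was 1.76 times the WT mean and lay above each of the other 5 libraries, whereas WT and Hand2 cKO overlapped. The Gli2/3 cKO library was the highest of the 6 for 18.7% of all genes tested. By edgeR the log2 fold change of Shh in Gli2/3 cKO was 0.82 ± 0.23 (SE) against WT, with a 95% interval of 0.27 to 1.37, an unadjusted p of 0.0107 and an adjusted p of 0.853. Against Hand2 cKO it was 0.68 ± 0.21 (95% interval 0.17 to 1.20, edgeR unadjusted p = 0.0171, adjusted p = 0.764). Neither was called. In Hand2 cKO against WT it was 0.13 ± 0.17, with an interval of −0.29 to 0.56.

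**Figure D2:**
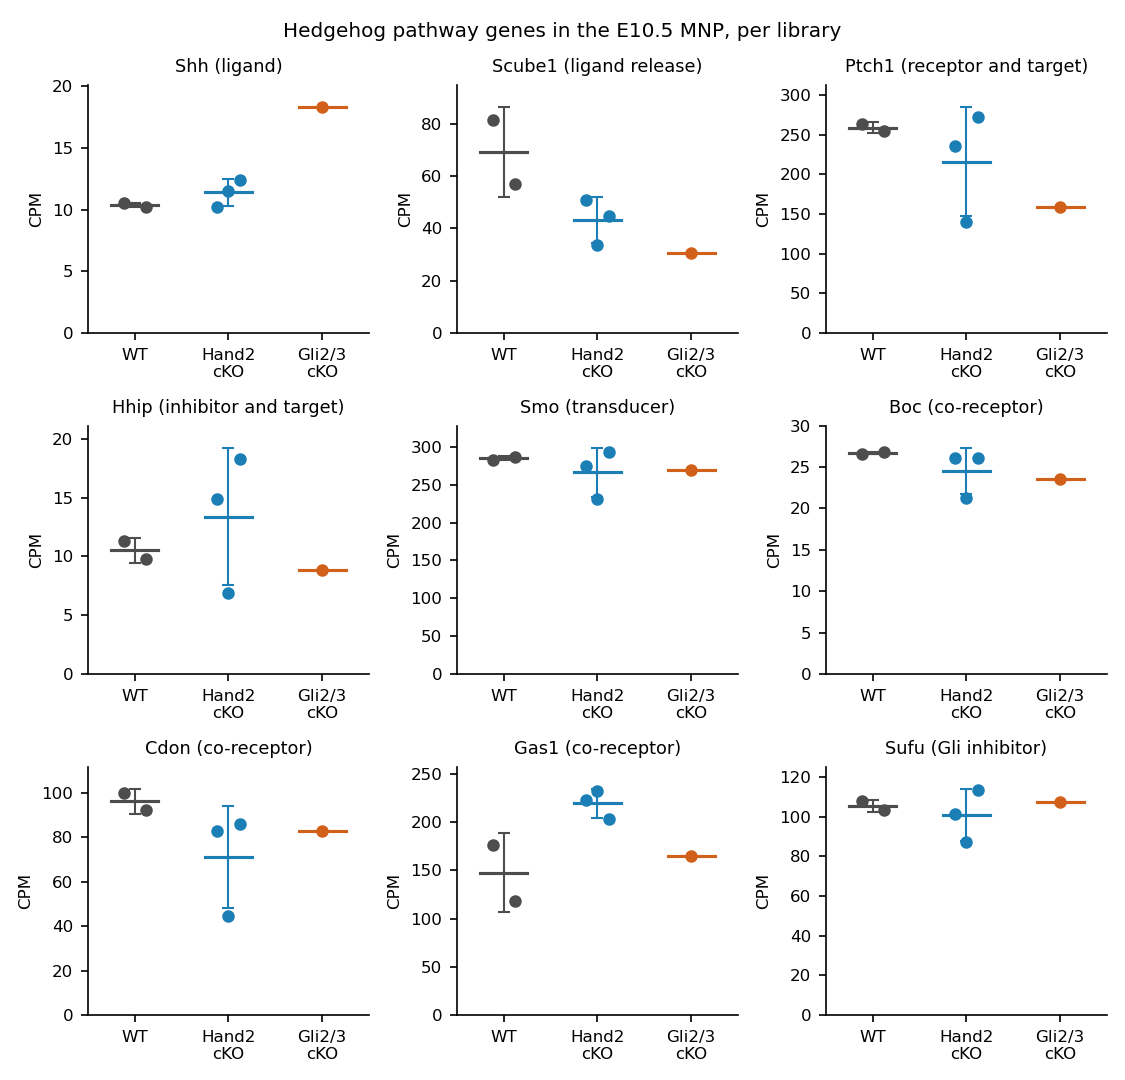
CPM (linear axis from 0) of each of the 9 genes by genotype; points are libraries, horizontal lines are group means and bars are 1 SD, with no bar for the lone Gli2/3 cKO library. Shh is highest (18.3 CPM) and Scube1 lowest (30.7 CPM) in Gli2/3 cKO, Gas1 is higher in each Hand2 cKO library (203 to 232 CPM) than in WT (118 and 176 CPM), and Hand2 cKO 2 is lowest for Ptch1, Hhip, Smo, Boc, Cdon and Sufu.

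In bulk tissue, more epithelial cells and more Shh RNA per cell cannot be told apart from the Shh level alone, and likewise for fewer cells and less RNA in every gene here. A list of 17 epithelial markers, all of them at 1 CPM or more in every library, was summed as a rough measure of epithelial RNA. It does not single out the cells that make Shh. Its summed level was 582 and 587 CPM in WT, at 560.4, 620.2 and 562 CPM in Hand2 cKO, and at 545 CPM in the Gli2/3 cKO library. There, 12 of the 17 markers lay below both WT libraries and 2 above both, beside 33.6% and 36.6% of all genes tested. Shh came to 1.81% and 1.75% of the summed marker level in WT, to 1.83%, 1.86% and 2.21% in Hand2 cKO and 3.36% in the Gli2/3 cKO library. Single markers in Gli2/3 cKO ran from 40.2% of the WT mean for Krt5 to 118% for Trp63. The ratio in Gli2/3 cKO was 1.89 times the WT mean, against 1.76 times for Shh itself. Against the cadherin Cdh1 alone it was 1.91 times the WT mean. In Hand2 cKO the ratio was 1.11 times that of WT with the list and 1.27 times with Cdh1. Whether the number of Shh-making cells or their Shh RNA per cell differed was not tested.

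Markers of the other epithelial and neural tissues that make Shh were summed as well. The 6 pharyngeal endoderm genes summed to 22.2 and 22.3 CPM in WT, to 20.9 to 29.6 CPM in Hand2 cKO and to 14.8 CPM in Gli2/3 cKO, with Nkx2-1 among those listed at 0 in some library. The 8 genes of neural progenitors and floor plate summed to 11.4 and 10.3 CPM in WT, to 14.3 to 15.7 CPM in Hand2 cKO and to 15.4 CPM in Gli2/3 cKO, and 1 of the 8 reached 1 CPM in every library. Sox1, Olig2, Nkx2-2 and Neurog1 of that list were at 0 in some library. In the Gli2/3 cKO library 6 of these 8 genes lay above both WT libraries and 1 below both, beside 36.6% and 33.6% of all genes tested. Of the 6 endoderm genes 2 lay above both and 2 below both. The highest gene of the endoderm list was Foxe1, at 10.4 and 9.16 TPM in WT and 5.20 TPM in Gli2/3 cKO. That of the neural list was Sox2, at 10.3 and 8.40 TPM in WT and 11.1 TPM in Gli2/3 cKO. Each sum thus rests largely on few genes. The part of these cells in the Shh level was not tested.

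Lists for the other tissues of the arch bear on the genes of the mesenchyme, and on the difference between WT 3 and WT 4. The 8 neural crest mesenchyme genes, all at 1 CPM or more in every library, summed to 1646 and 1460 CPM in WT, to 1628 to 1713 CPM in Hand2 cKO and to 1664 CPM in Gli2/3 cKO. WT 4 was thus the lowest for this list, and the Gli2/3 cKO library stood close to WT 3. The 6 red cell genes varied most, at 2555 CPM in WT 3 against 9768 CPM in WT 4, at 3759, 7974 and 3562 CPM in Hand2 cKO and at 3349 CPM in Gli2/3 cKO. WT 4 and Hand2 cKO 2 were the high libraries for red cell genes. The 5 endothelial genes summed to 154 to 214 CPM and the 5 muscle precursor genes to 10.6 to 17.6 CPM over the 6 libraries. The libraries also differed in Ddx3y, a gene of the Y chromosome and the only marker of sex read here. It stood at 0.18 TPM in WT 3 and 26.1 TPM in WT 4. It stood at 0.08, 8.02 and 0.19 TPM in Hand2 cKO and at 30.7 TPM in the Gli2/3 cKO library. Hand2 cKO 2 thus lay between the low and the high libraries, and the sex or mix of sexes in each library was not established. The part of these cells and of sex in the levels of the 9 genes was not tested.

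**Figure D3:**
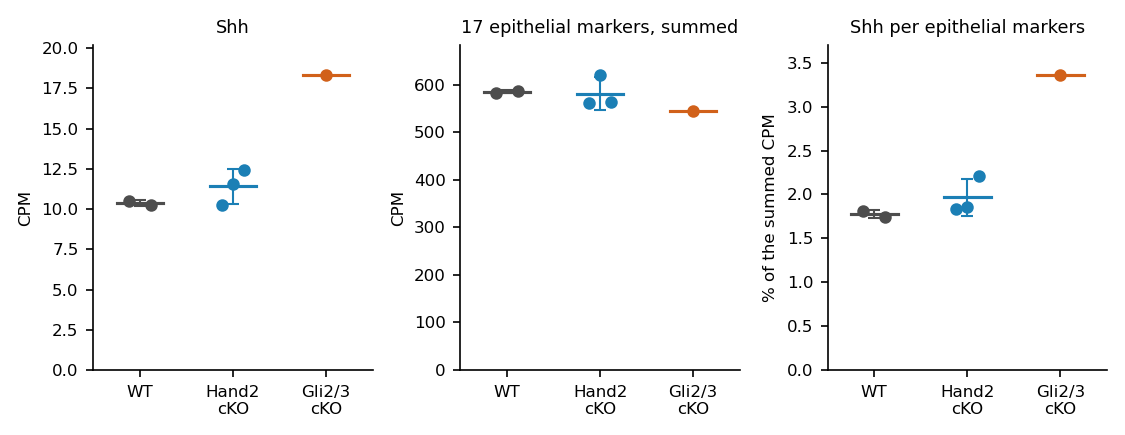
Shh (CPM), the summed level of 17 epithelial markers (CPM) and Shh as a percentage of that sum, by genotype; points are libraries, lines are group means and bars are 1 SD. The marker sum runs from 545 to 620.2 CPM over the 6 libraries, while the Shh percentage is 3.36% in Gli2/3 cKO and at most 2.21% elsewhere.

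Scube1, a secreted and membrane-bound glycoprotein of the family that helps release Hedgehog ligand, had the lowest fold change of the 9 genes in both mutants. It stood at 81.3 and 57.0 CPM in WT, at 50.9, 33.6 and 44.5 CPM in Hand2 cKO, and at 30.7 CPM in the Gli2/3 cKO library. Each Hand2 cKO library lay below both WT libraries, which holds for 15.7% of genes tested. The Gli2/3 cKO library lay below all others, which holds for 16.8% of genes tested. The WT libraries themselves differed, with WT 3 the highest of the 6. By edgeR the log2 fold change in Gli2/3 cKO against WT was −1.17 ± 0.34 (95% interval −2.003 to −0.34, unadjusted p = 0.0136, adjusted p = 0.868). In Hand2 cKO against WT it was −0.69 ± 0.24 (95% interval −1.26 to −0.11, edgeR unadjusted p = 0.0274, adjusted p = 0.723). Neither was called, and between the mutants the change was −0.49 ± 0.31, an interval that spans 0. Without WT 3 the change in Hand2 cKO was −0.41 and without WT 4 it was −0.92, so its size depended on the WT library. Both mutant values rest on the same WT libraries and are not independent.

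Of the related genes, Scube2 was near the limit of detection, between 0.05 and 1.11 CPM. Scube3 stood at 139.9 and 120.1 CPM in WT, with 151, 90.5 and 162 CPM in Hand2 cKO, and 123 CPM in the Gli2/3 cKO library, groups that overlapped.

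Ptch1, receptor and pathway target, stood at 264 and 254 CPM in WT, at 235, 139.5 and 273 CPM in Hand2 cKO, and at 159 CPM in the Gli2/3 cKO library. The Gli2/3 cKO value was 61.4% of the WT mean and below both WT libraries, but not below Hand2 cKO 2. By edgeR the log2 fold change in Gli2/3 cKO against WT was −0.70 ± 0.40, with a 95% interval of −1.69 to 0.28 (unadjusted p = 0.130, adjusted p = 1). With the length trend removed, Ptch1 stood at 226 and 253 CPM in WT, at 228, 211 and 243 CPM in Hand2 cKO, and at 144 CPM in the Gli2/3 cKO library. On that scale Gli2/3 cKO lay below all other libraries, with a log2 fold change of −0.74 ± 0.17 (edgeR adjusted p = 0.312), which was not called. How many of all genes lie so on that scale was not counted. In Hand2 cKO against WT the change was −0.26 ± 0.29, −0.08 ± 0.12 with the trend removed and −0.04 without Hand2 cKO 2.

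Hhip, a membrane protein that binds ligand and keeps it from Ptch1, is a target as well. It stood at 11.3 and 9.77 CPM in WT, at 14.9, 6.92 and 18.3 CPM in Hand2 cKO, and at 8.84 CPM in the Gli2/3 cKO library, on 221 to 788 estimated counts. The Hand2 cKO libraries lay on both sides of WT. The log2 fold change was −0.25 ± 0.55 in Gli2/3 cKO and 0.34 ± 0.41 in Hand2 cKO, with wide 95% intervals of −1.59 to 1.08 and −0.64 to 1.33. With the length trend removed Hhip stood at 9.40 and 9.69 CPM in WT, at 14.3, 11.3 and 15.9 CPM in Hand2 cKO, and at 7.85 CPM in the Gli2/3 cKO library. Each Hand2 cKO library then lay above WT (log2 fold change 0.54 ± 0.19, edgeR adjusted p = 0.356) and Gli2/3 cKO below it. How many of all genes do so on that scale was not counted. In Hand2 cKO against WT the median log2 fold change there was 0.0749, and 1578 of 17399 genes were higher at an unadjusted edgeR p below 0.05.

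Gli1 is set beside these as a further target. Gli1, a Gli factor made only where the pathway is active, stood at 109.9 and 119.6 CPM in WT, at 107, 96.6 and 102 CPM in Hand2 cKO, and at 25.7 CPM in the Gli2/3 cKO library. Its log2 fold change in Gli2/3 cKO against WT was −2.16 ± 0.21, with an edgeR adjusted p of 0.129 and a DESeq2 adjusted p of 1.15e-18, so it was called by DESeq2 and not by edgeR. The 95% interval was −2.67 to −1.64. Put as levels in Gli2/3 cKO, Gli1 stood at 22.4% of its WT mean, Ptch1 at 61.4% and Hhip at 84.0%. Whether these folds differ between genes was not tested.

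**Figure D4:**
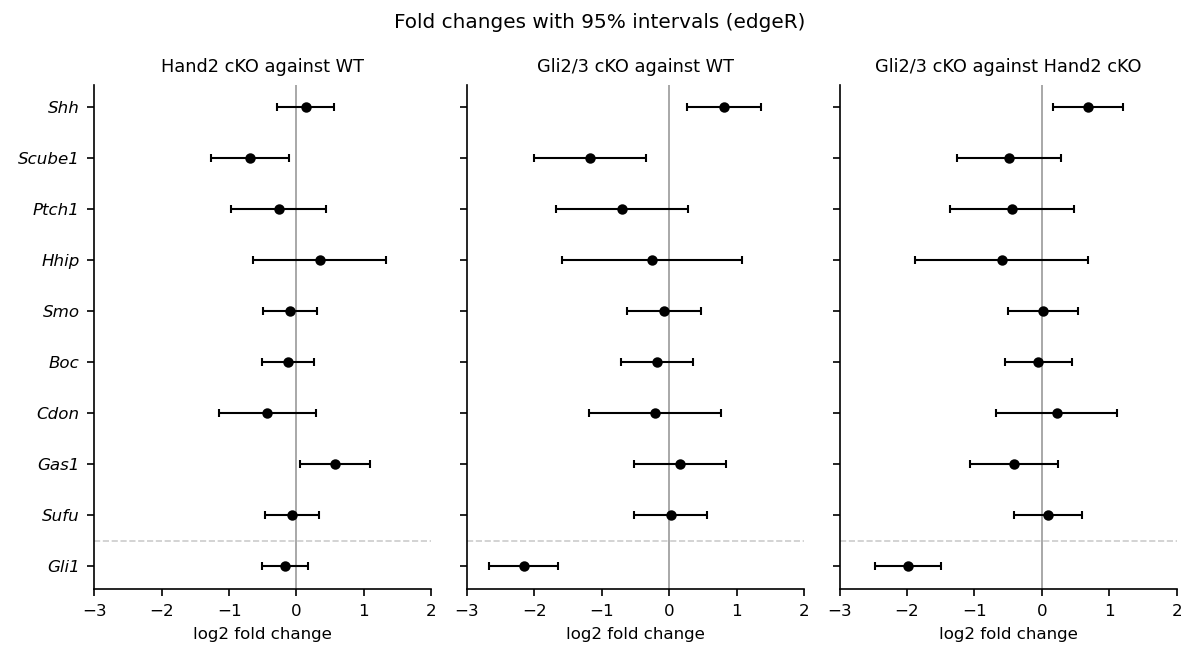
Log2 fold change with its 95% interval from edgeR for the 9 genes and, under the dashed line, for the target Gli1, in the 3 comparisons; the vertical line marks no change. In Gli2/3 cKO against WT the intervals of Shh (0.27 to 1.37) and Scube1 (−2.003 to −0.34) exclude 0 without adjustment, while those of Ptch1 (−1.69 to 0.28), Hhip (−1.59 to 1.08), Smo, Boc, Cdon, Gas1 and Sufu span it in that comparison.

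Smo, the membrane protein that carries the signal into the cell, had nearly the same level throughout. It stood at 283 and 287 CPM in WT, at 275, 231 and 293 CPM in Hand2 cKO, and at 269.9 CPM in the Gli2/3 cKO library. The log2 fold change was −0.10 ± 0.17 in Hand2 cKO (95% interval −0.50 to 0.31) and −0.08 ± 0.23 in Gli2/3 cKO (−0.63 to 0.47). A change of up to 0.63 on the log2 scale lies within these intervals.

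Sufu, which holds Gli proteins in the cytoplasm, was alike in this respect. It stood at 108 and 103 CPM in WT, at 101, 87.3 and 114 CPM in Hand2 cKO, and at 107 CPM in the Gli2/3 cKO library. Its log2 fold change was −0.07 ± 0.17 in Hand2 cKO (95% interval −0.47 to 0.34) and 0.02 ± 0.22 in Gli2/3 cKO (−0.52 to 0.57). For Smo and Sufu the lowest library of the 6 was Hand2 cKO 2. After removal of the length trend Sufu stood between 99.0 and 109 CPM in all 6 libraries.

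Of the co-receptors Boc, Cdon and Gas1, none was called. Boc, an immunoglobulin-domain protein that binds ligand, stood at 26.6 and 26.8 CPM in WT, at 26.1, 21.2 and 26.1 CPM in Hand2 cKO, and at 23.6 CPM in the Gli2/3 cKO library. Its log2 fold change was −0.13 ± 0.16 in Hand2 cKO and −0.18 ± 0.22 in Gli2/3 cKO (95% interval −0.71 to 0.35). These differences were smaller than their errors. With the length trend removed Boc stood at 24.4 and 26.7 CPM in WT and at 25.6, 26.8 and 24.6 CPM in Hand2 cKO, so that these groups overlapped. The sign in Hand2 cKO turned, at a log2 fold change of 0.0053, beside a median of 0.0749 over all genes tested on that scale.

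Cdon, a close relative of Boc, stood at 96.1 ± 5.51 CPM in WT (SD, n = 2; the lower library at 92.2 CPM), 82.9, 44.7 and 85.9 CPM in Hand2 cKO, and 82.8 CPM in the Gli2/3 cKO library. Each Hand2 cKO library lay below WT, against 15.7% of genes tested, and so did the Gli2/3 cKO library, against 33.6%. Hand2 cKO 2 lay far below the rest. The log2 fold change in Hand2 cKO was −0.43 ± 0.29 with all libraries (95% interval −1.15 to 0.28) and −0.20 without Hand2 cKO 2. With the length trend removed it was −0.25 ± 0.12 (edgeR adjusted p = 0.393), where WT stood at 85.6 and 91.6 CPM and Hand2 cKO at 80.2, 67.7 and 76.3 CPM. Against WT, the change in Gli2/3 cKO was −0.22 ± 0.40 (95% interval −1.19 to 0.76).

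Gas1, a GPI-anchored protein, had positive fold changes against WT in both mutants with all libraries. It stood at 176 and 118 CPM in WT, at 223, 232 and 203 CPM in Hand2 cKO, and at 165 CPM in the Gli2/3 cKO library. Each Hand2 cKO library lay above both WT libraries, and the Gli2/3 cKO library lay between the WT libraries. The log2 fold change in Hand2 cKO was 0.57 ± 0.21 (95% interval 0.06 to 1.09, edgeR unadjusted p = 0.0345, adjusted p = 0.723) and was not called. It was 0.32 without WT 4 and 0.89 without WT 3, since the WT libraries differed more from each other than the Hand2 cKO libraries did. For Gli2/3 cKO it was 0.16 ± 0.28 against WT (95% interval −0.52 to 0.84), and its sign turned without WT 4, at −0.10. Between the mutants it was −0.41 ± 0.27 (95% interval −1.07 to 0.25). Gas1 has 1 exon, so its reads are not split among transcripts.

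Counted over the 9 genes, libraries of the groups did not overlap for 4 genes in Hand2 cKO against WT, against 31.0% of all genes tested. Gas1 was the 1 gene higher, against 15.3% of all genes, and Scube1, Boc and Cdon were the 3 lower, against 15.7%, though the groups overlapped for Boc once the length trend was removed. They did not overlap for 7 genes in Gli2/3 cKO against WT, where the lone library makes this common at 70.2% of all genes. Shh was the 1 gene higher, against 36.6%, and Scube1, Ptch1, Hhip, Smo, Boc and Cdon were the 6 lower, against 33.6%. Between the mutants they did not overlap for 3, against 55.9% of all genes: Shh higher in Gli2/3 cKO, against 28.7%, and Scube1 and Gas1 lower, against 27.2%. Hand2 cKO 2 was the lowest of the 6 libraries for 6 of the 9 genes and for 32.0% of all genes tested. The median log2 fold change of the 9 genes was −0.10 in Hand2 cKO and −0.18 in Gli2/3 cKO against WT, beside medians of 0.00 in both over all genes tested.

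Of the other pathway genes, 30 were measured and tested: ligands, processing and release factors, receptors and glypican family members, ciliary regulators, kinases and the Gli factors. By edgeR 0 of the 30 were called in any comparison. At an unadjusted p below 0.05 edgeR gave 1 lower in Hand2 cKO against WT, 4 lower in Gli2/3 cKO against WT and 3 lower between the mutants. The shares of all genes were 4.02%, 2.96% and 2.63%. It gave 0 higher, against 2.44%, 1.63% and 2.86% of all genes. DESeq2 called 0, 1 and 1 of the 30, beside 1.04%, 0.738% and 0.818% of all genes, and the gene called was Gli1. Among those lower in Gli2/3 cKO against WT were Gli1, Gli2 and Gli3, of which Gli2 and Gli3 are the deleted genes themselves. Gli2, the main activator, stood at 122 and 105 CPM in WT and at 58.3 CPM in Gli2/3 cKO, and Gli3, the main repressor, at 176, 145 and 80.1 CPM in the same libraries. For Gli2 the log2 fold change was −0.96 ± 0.31, and for Gli3 it was close to that, with a 95% interval of −1.88 to −0.12. In Hand2 cKO against WT they were −0.09 ± 0.22 and −0.11 ± 0.26.

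The gene of Hand2 cKO with an unadjusted p below 0.05 was Scube2, at the low levels given above (log2 fold change −2.20 ± 0.84, edgeR unadjusted p = 0.0394, adjusted p = 0.723). In WT it stood at 0.25 CPM in WT 3 and 1.11 CPM in WT 4, so the WT libraries differed more than WT 3 did from Hand2 cKO, at 0.19, 0.05 and 0.17 CPM. The next genes by p in Hand2 cKO against WT were the heparan sulphate proteoglycan Gpc4 (0.29 ± 0.15), the kinase-like Stk36 (−0.33 ± 0.19) and Disp2 (−1.05 ± 0.65). In Gli2/3 cKO against WT they were the kinase Csnk1a1 (0.29 ± 0.22), Scube2 (−1.49 ± 1.23), the ciliary factor Efcab7 (−0.31 ± 0.28) and the glypican Gpc3 (−0.31 ± 0.27). Between the mutants they were Disp2 (1.85 ± 0.76), Gpc4 (−0.45 ± 0.20), Stk36 (0.41 ± 0.24) and Efcab7 (−0.44 ± 0.26). The other Hedgehog ligands were near the limit of detection, with Ihh at 0.11 to 0.26 CPM and Dhh at 0.10 to 0.34 CPM. Disp1, the transporter that exports ligand, stood at 26.0 to 36.0 CPM, and Hhat, which adds its palmitate, at 11.0 to 13.9 CPM, with overlapping groups for Disp1.

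The transcripts were compared because genes with several starts or ends could keep their sum while their parts change. Shh, Boc and Gas1 are listed with 1 transcript each. Over 58855 transcripts tested by edgeR, 0 were called in any comparison, the transcripts of the 9 genes included. Estimated counts are split between overlapping transcripts by the authors' program, so the shares are less certain than the sums.

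For Ptch1, the shorter coding transcript Ptch1-202 took 69.7% and 76.8% of the counts in WT, 76.4%, 86.2% and 72.8% in Hand2 cKO and 78.6% in the Gli2/3 cKO library. Ptch1-201, which begins at the promoter printed above, took 25.1% and 18.4% in WT, 18.8%, 12.2% and 21.3% in Hand2 cKO and 18.5% in the Gli2/3 cKO library. The groups overlapped, and the outermost value was again that of Hand2 cKO 2. In Gli2/3 cKO against WT the log2 fold change was −0.65 ± 0.30 for Ptch1-202 and −0.99 ± 0.69 for Ptch1-201, so both transcripts had values below 0 as the gene did. The rest was mainly Ptch1-204, a transcript marked for nonsense-mediated decay, at 1.53% to 4.78%.

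For Cdon, both main transcripts encode the same 3750 coding bases and differ in their first exons. Cdon-201 took 55.4% and 71.5% in WT, 82.6%, 91.0% and 76.3% in Hand2 cKO and 81.0% in the Gli2/3 cKO library. Cdon-202, which starts upstream of it, took 44.0% and 28.3% in WT, 17.2%, 8.99% and 23.2% in Hand2 cKO and 18.7% in the Gli2/3 cKO library. All 4 mutant libraries thus lay below both WT libraries in the share of Cdon-202. How often other transcripts do so was not counted, and both comparisons rest on the same WT libraries. The log2 fold change of Cdon-202 was −1.41 ± 0.64 in Hand2 cKO (95% interval −3.04 to 0.22, edgeR unadjusted p = 0.0780, adjusted p = 0.909) and −1.23 ± 0.93 in Gli2/3 cKO. That of Cdon-201 was 0.03 ± 0.25 and 0.10 ± 0.34. None was called, and WT 3 and WT 4 differed from each other in this share by more than WT 4 did from Hand2 cKO 3.

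For Scube1, Scube1-205 took 53.6% to 69.6% and Scube1-201 23.3% to 26.8% of the counts over the 6 libraries. In Gli2/3 cKO against WT the log2 fold changes were −1.26 ± 0.43 for Scube1-205 (edgeR unadjusted p = 0.0313, adjusted p = 1) and −1.18 ± 0.45 for Scube1-201 (edgeR unadjusted p = 0.0444, adjusted p = 1), near that of the gene. In Hand2 cKO they were −0.43 ± 0.30 and −0.61 ± 0.31. A minor transcript, Scube1-203, took 6.87% and 10.3% in WT, 0.88%, 1.40% and 9.51% in Hand2 cKO and 1.55% in the Gli2/3 cKO library. Single transcripts made up most of the counts of Smo (98.5% to 99.6% in Smo-201), Hhip (at least 90.4% in Hhip-201) and Sufu (87.2% to 97.8% in Sufu-201).

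**Figure D5:**
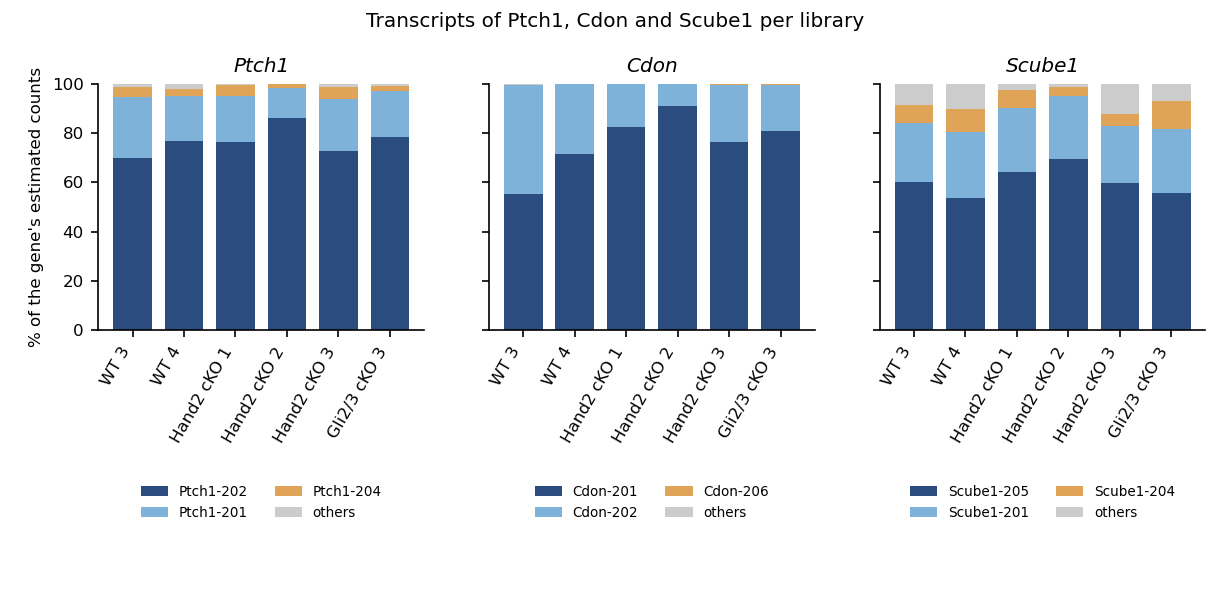
Share of each gene's estimated counts (percent, stacked to 100) in its 3 leading transcripts and in all others, per library, for Ptch1, Cdon and Scube1. Ptch1-202 holds 69.7% to 86.2% of Ptch1, and Cdon-202 holds 44.0% of Cdon in WT 3, 28.3% in WT 4 and at most 23.2% in the mutant libraries.

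The genes with the pattern most like that of Shh and of Ptch1 over the 6 libraries were found among 11440 other genes by Pearson's r of log2 CPM, as a description. For Shh they were Zwilch, a kinetochore protein (r = 0.97), Lactb2, a nuclease of mitochondria (r = 0.97), and Emc1, a subunit of a membrane protein complex (r = 0.96), and 46 genes reached an r of 0.9. Zwilch stood at 55.6 and 56.3 CPM in WT, at 58.02, 56.8 and 61.6 CPM in Hand2 cKO, and at 74.6 CPM in the Gli2/3 cKO library. For Ptch1 they included Smg8, of nonsense-mediated decay (r = 0.99), and H6pd, an enzyme of the endoplasmic reticulum (r = 0.99), and 213 genes reached an r of 0.9. H6pd stood at 15.2 and 14.8 CPM in WT, at 14.2, 10.2 and 15.6 CPM in Hand2 cKO, and at 10.2 CPM in the Gli2/3 cKO library. With 6 libraries these values rest on few points: those like Shh share a high value in Gli2/3 cKO 3, and those like Ptch1 share low values in Gli2/3 cKO 3 and in Hand2 cKO 2, the library with the trend on length.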

How the data were processed

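Bulk RNA-seq libraries of E10.5 MNPs were grouped by the genotype in their labels. Of 10 samples, 6 had files and entered, and 4 were not analysed here. Per the study and its processing notes, reads of paired ends were aligned to mm10 and quantified in Strand NGS, where DESeq2 was run. For the software version and annotation: not given in the sources used here. The authors deposited expected counts, that is, estimated counts for each of 105129 transcripts, from 47.7% to 56.8% of them more than 0.01 from a whole number. These were summed per gene symbol and rounded, whereas whole counts had been assumed in the design. 103635 transcripts matched GENCODE M21 (mm10), with 97.8% carrying the same symbol.

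The fit used edgeR 4.0.16 in R 4.3.3 (filterByExpr, trimmed mean of M values, quasi-likelihood, 1 fit of all 6 libraries with genotype as the only term, 3 residual degrees of freedom). Adjusted p is by Benjamini-Hochberg over the 17477 genes tested, and a call needs an adjusted p below 0.05 and a fold above 1.5. Intervals are at 95%. TPM was computed from the transcript lengths of GENCODE M21. Libraries of a group differed by more than sampling noise (chi-square of 24.0 to 225 per degree of freedom). The procedure was run on simulated counts with known folds and 1 fixed spread for every gene and library. These did not copy the spread or the length trend of the real libraries. They therefore cannot show how often changes are missed or wrongly called here. Alternatives were DESeq2 1.42.0, another scaling, no filter, 2 groups only, removal of the trend on transcript length, protein-coding genes only, and leaving out each WT and Hand2 cKO library.

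The 9 genes, the pathway and marker lists and the tests were chosen with earlier results of these data known. Named were the 9 genes, Gli1, Gli2 and Gli3, the up to 4 other pathway genes with the smallest p per comparison, and the 3 genes most like Shh and Ptch1 with a mean log2 CPM no lower than 1 and without ribosomal protein genes, pseudogenes or numbered models. Scube2, Scube3, Ihh, Dhh, Disp1, Hhat and Scube1-203 were added after their values were seen. Results for some genes that this rule or the lists took in are not reported here. Of the pathway list, Mosmo was not matched and Grk2 stands for Adrbk1.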

Additional observations from a re-analysis of the deposited data

How the results depend on the processing

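Of the 9 genes, 0 were called in any comparison under any of the 11 alternatives. Their adjusted p was never below 0.353 in Hand2 cKO against WT, 0.149 in Gli2/3 cKO against WT and 0.269 between the mutants. The directions of Shh, Scube1, Ptch1 and Hhip were the same in all 3 comparisons under all 11, and the log2 fold change of Shh in Gli2/3 cKO against WT ran from 0.80 to 0.84. Other signs turned. Removing the length trend turned Boc (0.0053), Sufu (0.0565), Gli2 (0.1143) and Gli3 (0.1554) in Hand2 cKO against WT, Sufu (−0.0028) in Gli2/3 cKO against WT, and Smo (−0.0998), Cdon (−0.0005) and Sufu (−0.0593) between the mutants. Leaving out 1 library turned Sufu (−0.1627 to 0.0125), Gli2 (−0.1897 to 0.0691) and Gli3 (−0.3591 to 0.036) in Hand2 cKO against WT, Gas1 (−0.0977 to 0.4786) and Sufu (−0.0045 to 0.0543) in Gli2/3 cKO against WT, and Smo (−0.0719 to 0.0937) and Cdon (−0.0267 to 0.3751) between the mutants. The cause was not tested.

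Of the other 30 pathway genes, 1 in place of 0 was called, Gli1. In Gli2/3 cKO against WT this was so by DESeq2 (1), without the filter (1), in the fit of 2 groups (1) and after removal of the length trend (1). Between the mutants it was so by DESeq2 (1), without the filter (1) and after removal of the length trend (1). Leaving out 1 library gave 0 to 1 in both, with 1 when Hand2 cKO 2 was left out. The ratio of Shh to epithelial markers in Gli2/3 cKO over WT was 1.86 to 1.92 with 1 WT library left out, and in Hand2 cKO over WT it was 1.27 with Cdh1 alone. Over all genes edgeR called 2, 2 and 6 in the 3 comparisons, DESeq2 182, 129 and 143, edgeR without the filter 45, 21 and 39, the fit of 2 groups 2, 57 and 20, protein-coding genes 10, 2 and 8, and removal of the length trend 48, 10 and 29. Leaving out 1 library gave 1 to 39, 0 to 14 and 2 to 23. No paired analysis was possible because the groups with files share fewer than 2 replicate numbers. The Gli2/3 cKO library could not be left out, and its fits assume that it varies like the other groups. Depth limits Ihh, Dhh, Disp2 and Scube2, which had few counts.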
